A study of Mus musculus with 24 samples.

Results

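The genes described here encode the SR splicing factors (Srsf genes) and the heterogeneous nuclear ribonucleoproteins (hnRNP genes) as measured in the ventral tegmental area (VTA), the midbrain region that holds the dopamine neurons of the reward system. Genes were chosen by the only annotated gene symbol of a probe set (the group of array probes summarised as 1 value). It belonged if that symbol was Srsf with a number, or started with Hnrnp or Hnrp, and was no pseudogene. An older Sfrs name counted only where it was updated to a current Srsf name. This left 37 probe sets of 27 genes, 10 SR and 17 hnRNP, out of 23410 probe sets with an annotated gene and 35556 in all. Where a gene had several probe sets, the one with the highest mean over the arrays was used. Another 15 probe sets that name such a gene together with further genes were left out, and Hnrnpa1, Hnrnpa3 and Hnrnph3 had only probe sets of that kind. Srsf7 is missing too, since no probe set is named for it in the annotation.

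Punches of the VTA came from male wild-type C57BL/6N mice aged 10-12 weeks, kept on a cycle of 12 h light and 12 h dark with standard chow and water freely available. Mice were sampled at 6 times, ZT0, ZT4, ZT8, ZT12, ZT16 and ZT20, where ZT0 (Zeitgeber time) is lights on and ZT12 lights off. There were 4 mice per time point and 1 Affymetrix Mouse Gene 1.0 ST array per mouse, 24 arrays in all, with no other genotype or treatment. Each value is RNA abundance in a whole punch on the log2 scale, so fewer cells of a type and less RNA per cell cannot be told apart.

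SR proteins carry an RNA recognition motif and a tail rich in serine and arginine, bind exonic enhancers and help to recruit the spliceosome. Kinases of the SRPK and CLK families phosphorylate that tail, which controls where the proteins sit in the nucleus and whether they act. The hnRNP proteins coat nascent transcripts, often silence exons, and in the cytoplasm govern the stability, transport and translation of mRNA, while many genes of both families limit their own level through alternative exons that send the transcript to decay. A whole-transcript array reads the summed abundance of such isoforms, not the splicing itself.

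The time course asked at which time of day each gene was highest. Over the 27 genes the answer was mostly that differences between times were small against the spread between mice. None was rhythmic over 24 h once p-values were adjusted for all transcripts (threshold 0.05). Hnrnpdl had the smallest p, with a high level from ZT4 to ZT12 and a low at ZT20, and the SR gene Srsf5 came next with a high in the light phase. Replicate 4 of ZT0 read low for most of these genes, and several patterns depended on it.

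Promoter letters are shown for genes that passed an unadjusted threshold in a comparison across the day. Where the probe sets lie was not analysed, so the values may come from another place than the start shown. Srsf5 and Hnrnph2 have further probe sets, whose values are given below. Of the 5 genes that passed, Srsf5, Hnrnpdl, Hnrnph2 and Hnrnpul1 had an entry in the RefSeq promoter table of GRCm38.p6. Hnrnpll is named only. Each line gives bases before the annotated start, 5′ to 3′ on the strand of the gene, with capitals for the GC box GGGCGG, the CCAAT box CCAAT and the CRE half-site TGACG on either strand. Srsf5 is shown from 250 to 5 bases before its start (chr12:80945249-80945494, plus strand), where RefSeq has no transcript of the gene. Hnrnph2 is shown over all 250 bases (chrX:134600929-134601178, plus strand). The window of Hnrnpdl lies inside the span of the gene, below a start farther upstream, so only 30 bases around its first GC boxes are given (chr5:100039421-100039450, minus strand), and the window of Hnrnpul1 lies inside its gene in the same way and is not printed.
Srsf5: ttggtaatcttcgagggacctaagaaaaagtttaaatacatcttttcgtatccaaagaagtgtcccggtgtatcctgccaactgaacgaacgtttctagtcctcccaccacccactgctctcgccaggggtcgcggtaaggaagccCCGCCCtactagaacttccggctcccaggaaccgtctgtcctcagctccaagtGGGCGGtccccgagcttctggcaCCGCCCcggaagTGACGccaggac
Hnrnph2: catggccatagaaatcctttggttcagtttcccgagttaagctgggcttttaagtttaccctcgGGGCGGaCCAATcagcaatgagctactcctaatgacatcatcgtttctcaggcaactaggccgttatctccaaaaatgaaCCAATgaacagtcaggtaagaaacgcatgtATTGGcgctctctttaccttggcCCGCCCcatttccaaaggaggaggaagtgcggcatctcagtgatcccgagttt
Hnrnpdl: cgggaGGGCGGgcgagcgagcGGGCGGacg

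Srsf5 had 3 GC boxes, the nearest beginning 28 bases before the start, and a CRE half-site 16 bases before it. Hnrnph2 had 2 GC boxes and 3 CCAAT boxes, and the first GC box and the first CCAAT box lie a single base apart. Hnrnpdl had 3 GC boxes in its 250 bases, and 72% of those bases were G or C, against 56.8% for Srsf5 and 48.4% for Hnrnph2. None of these windows held the clock elements searched for, the E-box CACGTG and the D-box TTATGTAA, also read on both strands. Over the 37 promoter entries of 25 of the 27 genes, the GC box was present in 78.4% (32.7% of all 32851 promoters of the same length), the CRE half-site in 51.4% (17.8%) and the CCAAT box in 48.6% (33.8%). The E-box was present in 2 entries, 1 of Hnrnpd and 1 of Hnrnpf (5.41% against 6.02%), and the D-box in 0 (0.819% of all). These motifs were picked after matches had been seen, a match describes letters and not a bound site, and the absence of a match says only that these letters are not in the window.

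Array medians over all probe sets with a gene lay between 6.71 and 6.79. The dopamine neuron markers were measured in these punches, with mean levels of 7.76 for Th (tyrosine hydroxylase), 8.48 for Slc6a3 (the dopamine transporter) and 8.43 for Ddc. The median correlation of ZT0 replicate 4 with the other arrays, across probe sets, was 0.970, where the other 23 arrays had 0.988 to 0.993. No batch, slide or scan date is given in the labels, so none was tested. Counts and named values below are given with all 24 arrays and, where a call or a highest or lowest time point changes, also without ZT0 replicate 4.

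The SR and hnRNP genes read low together on ZT0 replicate 4. Taken as log2 value minus the mean of the gene over the 24 arrays, their mean there was -0.26, with -0.34 for the SR genes, -0.22 for the hnRNP genes and 0.01 for all transcripts. The other arrays ranged from -0.12 (ZT20 replicate 4) to 0.14 (ZT0 replicate 1). The 4 lowest arrays all carried the replicate number 4, with -0.12 at ZT20 (22 of 27 genes below their own mean), -0.10 at ZT12 (24) and -0.10 at ZT4 (21) besides ZT0 (21), whereas replicate 4 of ZT8 stood at 0.04 and that of ZT16 near 0. The labels do not say whether arrays with 1 number share a batch, and its part in the low values was not tested. Of the 27 genes, 15 had their lowest value of all 24 arrays there (55.6%), a position held by 15.3% of all transcripts. Relative to the mean of the other 3 ZT0 arrays, the median of the 27 genes was -0.40, that of all transcripts 0.07, and 22 of 27 genes lay below (81.5%, against 39.9% of all transcripts).

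**Figure D1:**
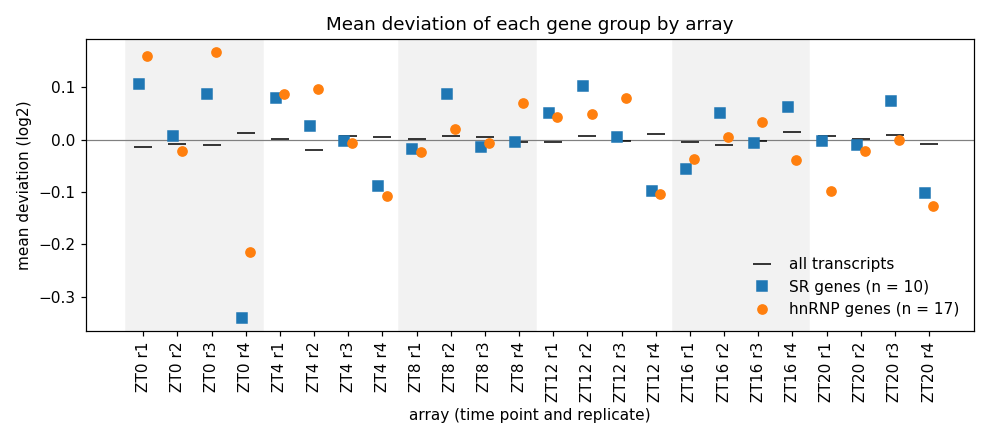
Mean deviation (log2) of the 10 SR genes (squares), the 17 hnRNP genes (circles) and all transcripts (dashes) on each of the 24 arrays, as value minus the mean of each gene over all arrays. ZT0 replicate 4 stands at -0.34 and -0.22, below every other array, while the dash for all transcripts stays near 0 throughout.

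Srsf2, an SR protein known for its place in nuclear speckles, had the largest gap and also the largest SD over arrays of the 27 genes (0.27). Its 4 ZT0 arrays read 10.66, 10.47, 10.60 and 9.34, so replicate 4 was 1.24 below the mean of the others, which agreed within 0.19. The same array was more than 0.5 below the other 3 for 8 of the 27 genes (29.6%, against 7.57% of all transcripts). Besides Srsf2 these were Srsf5 (-0.90), Hnrnpm (-0.89), Srsf10 (-0.82), Hnrnpa2b1 (-0.79), Hnrnpd (-0.72), Hnrnph1 (-0.62) and Hnrnpr (-0.56). The shift was not shared by all: Hnrnpa0 was 0.45 above the other 3 arrays, Hnrnpf 0.26, Srsf12 0.17, Srsf3 0.12 (in the probe set used) and Srsf4 0.08. Several of these names were chosen after their values were seen.

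Among other genes of splicing, the median of the same difference was -0.39 for SR kinases and import factors, -0.20 for exon junction and decay factors, -0.15 for hnRNP proteins under older names, -0.11 for neural regulators, -0.08 for the core spliceosome and -0.07 for SR-related proteins. Cell type markers moved on this array too, with medians of -0.18 over 10 dopamine neuron genes, -0.05 over 6 neuron genes, 0.11 over 7 astrocyte genes, 0.14 over 6 oligodendrocyte genes, 0.30 over 2 precursor genes, -0.10 over 6 microglia genes, -0.02 over 4 endothelial genes and 0.06 for 1 red blood cell gene. The part of any of these, or of RNA quality, in the low values was not tested.

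**Figure D2:**
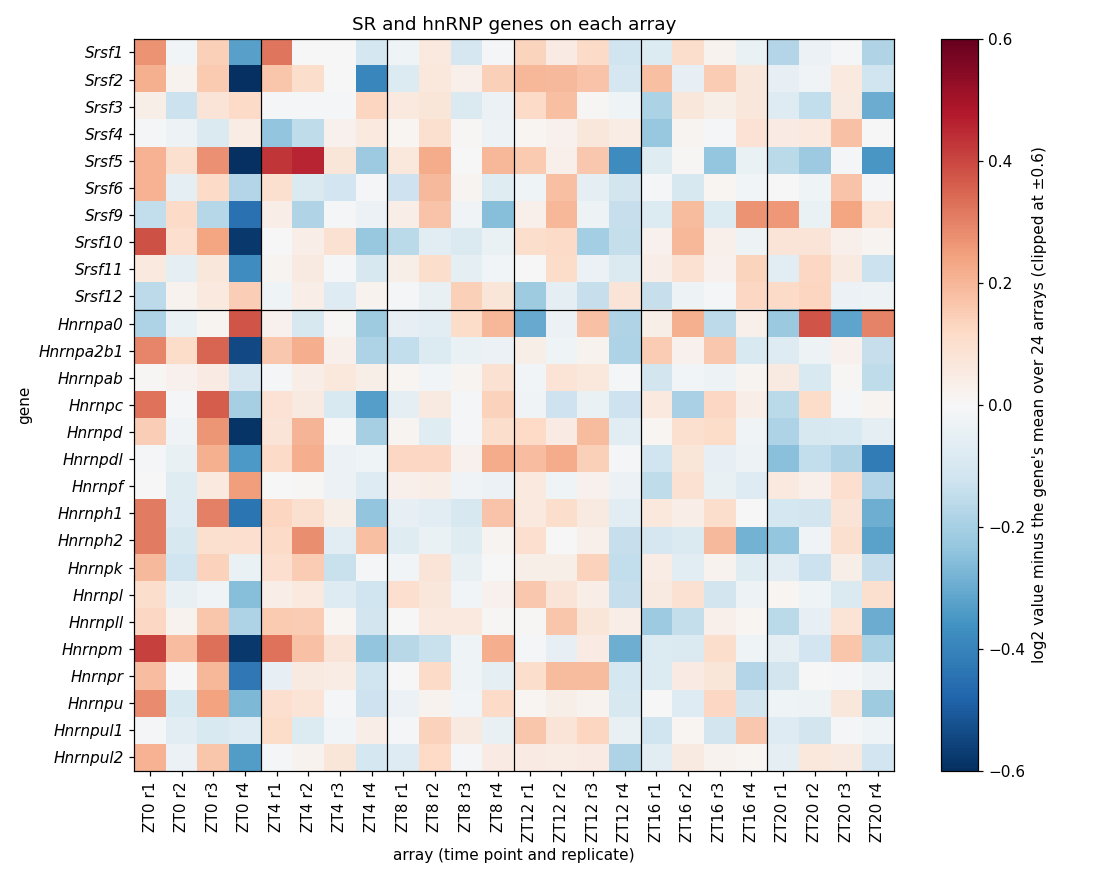
Heat map of the 27 genes (rows, SR genes above the line, hnRNP genes below) on the 24 arrays (columns, ordered by time point and replicate), coloured by log2 value minus the mean of the gene and clipped at 0.6 either way. The column of ZT0 replicate 4 holds the lowest value of 15 of 27 rows, and Hnrnpa0 and Hnrnpf are red in it.

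For the 24-h rhythm, the cosine and sine of ZT were fitted to each transcript with limma and tested together over all 24 arrays. At an unadjusted p under 0.05, 2 of 27 genes passed (7.41%), Hnrnpdl and Srsf5, where 8.91% of all transcripts did, so the share was not above that of the array. At an adjusted p under 0.05 0 of 27 passed, against 0.0299% of all transcripts (7 of 23410). The fitted peak-to-trough fold had a median of 1.06 over the 27 genes, from 1.01 to 1.27, and of 1.07 over all transcripts. The SD over arrays had a median of 0.14 for the 27 genes and 0.13 for all transcripts, and of 0.12 and 0.13 without ZT0 replicate 4.

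Hnrnpdl encodes an hnRNP closely related to hnRNP D and, like it, known to bind AU-rich RNA. Its arrays read 9.25, 9.22, 9.47 and 8.92 at ZT0, 9.38, 9.48, 9.23 and 9.24 at ZT4 and 9.39, 9.39, 9.29 and 9.48 at ZT8. They read 9.45, 9.49, 9.41 and 9.25 at ZT12, 9.14, 9.33, 9.21 and 9.23 at ZT16 and 9.01, 9.11, 9.08 and 8.84 at ZT20. All 4 ZT20 arrays lay below every array of ZT4, ZT8, ZT12 and ZT16, by as little as 0.03 at ZT16, whereas ZT0 overlapped with ZT20 through replicate 4 alone. In order of group means, ZT12 (9.40 ± 0.10, SD, n = 4), ZT8 (9.39 ± 0.08) and ZT4 (9.33 ± 0.12) could not be separated by their spread, ZT16 (9.23 ± 0.08) and ZT0 (9.21 ± 0.23) came next, and ZT20 was lowest (9.01 ± 0.12).

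The curve of Hnrnpdl peaked at ZT 8.52 ± 0.83 h (SE) with a peak-to-trough fold of 1.27 (moderated F-test in limma, n = 24, p = 0.000369, adjusted p = 0.180). With ZT0 replicate 4 left out, the fold was 1.25, the peak ZT 8.09 and the p 0.000468 (adjusted p = 0.193). It had an unadjusted p under 0.05 with any of the 24 arrays left out, up to 0.00167 without ZT20 replicate 4.

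Srsf5, an SR protein known to respond to growth signals in other cells, read 10.57, 10.46, 10.64 and 9.66 at ZT0, 10.79, 10.82, 10.44 and 10.14 at ZT4 and 10.43, 10.58, 10.36 and 10.56 at ZT8. It read 10.52, 10.40, 10.53 and 9.99 at ZT12, 10.29, 10.37, 10.13 and 10.32 at ZT16 and 10.20, 10.14, 10.35 and 10.01 at ZT20. The highest pair of arrays was at ZT4, the 2 lowest were replicates 4 of ZT0 and ZT12, and the ranges of all neighbouring times overlapped. With all arrays the fold was 1.26 and the peak ZT 6.34 ± 1.45 h (limma, n = 24, p = 0.0451, adjusted p = 0.551). Once ZT0 replicate 4 was left out they were 1.27 and ZT 4.86 ± 1.14 h (n = 23, p = 0.00619, adjusted p = 0.399). The unadjusted p stayed under 0.05 in 13 of 24 fits that left out 1 array and reached 0.0970 without ZT4 replicate 2.

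Without ZT0 replicate 4, 4 of 27 genes had a rhythm p under 0.05 (14.8%, against 9.09% of all transcripts) and 0 an adjusted p under 0.05. The added genes, chosen after their values were seen, were Srsf10 and Hnrnpm. Srsf10, an SR protein known to act as a repressor of splicing when dephosphorylated, then peaked at ZT 21.7 with a fold of 1.17 (limma, n = 23, p = 0.0185, adjusted p = 0.470), where all arrays gave a p of 0.370. Hnrnpm, which binds GU-rich intronic RNA, peaked at ZT 1.06 with a fold of 1.21 (n = 23, p = 0.0267, adjusted p = 0.499), where all arrays gave 0.424. Both calls were thus made by removing 1 array.

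**Figure D3:**
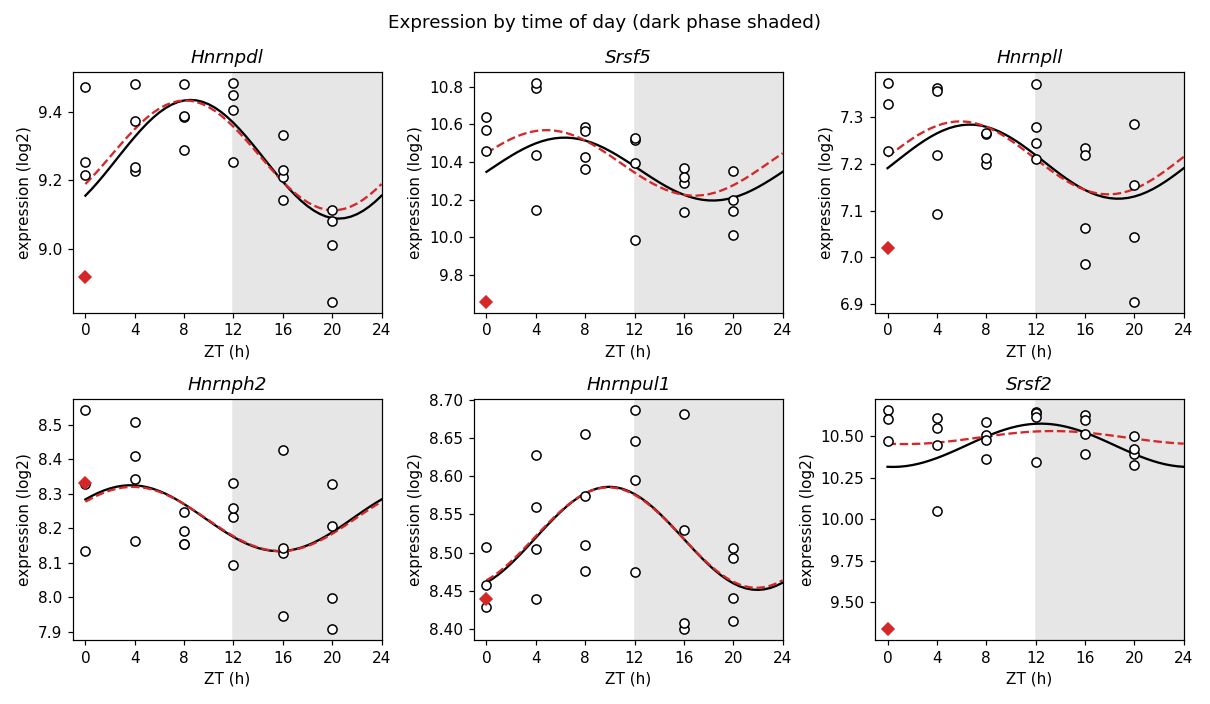
Expression (log2) of Hnrnpdl, Srsf5, Hnrnpll, Hnrnph2, Hnrnpul1 and Srsf2 by ZT, 1 point per array, with ZT0 replicate 4 as a red diamond and the dark phase shaded. Lines are the fitted 24-h curves with all arrays (solid black) and without that array (dashed red), and the curves differ most for Srsf2, whose red diamond lies at 9.34.

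Which time point held the highest or lowest group mean also turned on that array. With all arrays, 13 of 27 genes had their lowest mean at ZT20 (17.8% of all transcripts did) and the highest means were spread over all 6 times, with 7 at ZT12 and 5 at ZT0. Without ZT0 replicate 4, 15 of 27 had their highest mean at ZT0 (18.5% of all transcripts) and 15 their lowest at ZT20 (18.5%). The mean deviation of the 27 genes at ZT0 was then 0.08 and with all arrays 0.00. On ZT20 replicate 4, 6 of the 27 genes had their lowest value of all arrays (7.31% of all transcripts did), and 22 lay below their own mean.

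Opposite times of day were compared with limma, in a model with 1 mean per time point, with 8 arrays on each side and every pair of times 12 h apart. These 3 contrasts share arrays, so their counts are not separate evidence. The late light (ZT4 and ZT8) was compared with the late dark (ZT16 and ZT20), which leaves ZT0 out of the difference. The word late is relative: ZT4 and ZT16 lie before the middle of the light and the dark, and also enter the early contrast below. At an unadjusted p under 0.05, 3 of 27 genes were higher in the late light, against 3.66% of all transcripts, and 0 were lower, against 4.03%. At an adjusted p under 0.05 0 genes passed, nor did any of the 23410 transcripts (0%). The median difference was 0.03 over the 27 genes and 0.00 over all transcripts. Above 0 lay 18 of 27 genes, 14 of 17 hnRNP but 4 of 10 SR genes, and 11656 of 23410 transcripts.

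Srsf5 differed by 0.29 ± 0.12 (log2, SE, 8 against 8 arrays, limma, adjusted p = 0.564), Hnrnpdl by 0.24 ± 0.07 (adjusted p = 0.454) and Hnrnpll by 0.14 ± 0.06 (adjusted p = 0.618). Hnrnpll is a paralogue of Hnrnpl, known for exon silencing in activated T cells. Its arrays read 7.36, 7.36, 7.22 and 7.09 at ZT4 and 7.20, 7.26, 7.27 and 7.21 at ZT8. They read 6.99, 7.06, 7.23 and 7.22 at ZT16 and 7.05, 7.16, 7.28 and 6.91 at ZT20, so both sides overlapped. Srsf9 pointed the other way (-0.14 ± 0.08, adjusted p = 0.711) and did not pass the unadjusted threshold either. Leaving out ZT0 replicate 4, the same 3 genes were higher and 0 lower, against 5.09% and 4.73% of all transcripts, with an adjusted p of 0.322 for Srsf5, 0.170 for Hnrnpdl and 0.441 for Hnrnpll.

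Markers of cell types also differed in this contrast. Of 6 oligodendrocyte genes 2 were higher in the late light at an unadjusted p under 0.05, Mog by 0.12 and Mag by 0.14. Of 6 neuron genes Stmn2 was higher by 0.16, of 7 astrocyte genes Aldoc by 0.13 and of 6 microglia genes C1qa by 0.12, and 0 of 10 dopamine neuron genes passed. Differences above 0 were found in 4 of 6 oligodendrocyte, 6 of 6 neuron, 4 of 7 astrocyte, 4 of 6 microglia and 5 of 10 dopamine neuron genes. The lowest in each list, in that order, were -0.01, 0.03, -0.06, -0.05 and -0.08. The mean deviation of the oligodendrocyte genes lay between -0.15 and -0.03 on the ZT20 arrays and between -0.06 and 0.13 on the ZT8 arrays. At the other times of this contrast it overlapped, between -0.10 and 0.04 at ZT16 and between -0.07 and 0.09 at ZT4. That of the neuron genes lay between -0.20 and 0.01 at ZT20 and between -0.01 and 0.12 at ZT8. At ZT16 it lay between -0.08 and -0.02 and at ZT4 between -0.02 and 0.03. In the contrast of lights off with lights on, taken up next, 1 of 6 oligodendrocyte genes was higher at that threshold, Mog (0.13). There 1 of 4 endothelial genes was lower, Cldn5 (-0.26), and 4 of 6 and 2 of 4 genes of these lists lay above 0. In the early light 1 of 4 endothelial genes was higher, Cldn5 (0.22), and 1 of 7 astrocyte genes, Aldoc (0.16). Of 6 microglia genes 2 were, Cx3cr1 (0.14) and Aif1 (0.14). Above 0 lay 3 of 4, 5 of 7 and 5 of 6 genes, and the lowest differed by -0.05, -0.08 and -0.15. The part of these differences in the values of the SR and hnRNP genes was not tested.

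Around lights off (ZT8 and ZT12) against around lights on (ZT20 and ZT0), 2 of 27 genes were higher at an unadjusted p under 0.05, against 2.69% of all transcripts, and 0 lower, against 2.03%. At an adjusted p under 0.05 0 of 27 passed, against 0.00854% (2 transcripts). Hnrnpdl differed by 0.28 ± 0.07 (limma, adjusted p = 0.414). Hnrnpul1, a relative of the nuclear matrix protein hnRNP U, differed by 0.12 ± 0.05 (adjusted p = 0.980). The arrays of Hnrnpul1 read 8.51, 8.66, 8.57 and 8.48 at ZT8, 8.69, 8.60, 8.65 and 8.47 at ZT12, 8.44, 8.41, 8.51 and 8.49 at ZT20 and 8.51, 8.46, 8.43 and 8.44 at ZT0. All 8 arrays at ZT20 and ZT0 were at or under 8.51, and 5 of the 8 at ZT8 and ZT12 were at 8.57 or above.

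Without ZT0 replicate 4, 2 genes were higher (3.07% of all transcripts), again Hnrnpdl (0.23 ± 0.06, adjusted p = 0.535) and Hnrnpul1 (0.11 ± 0.05, adjusted p = 0.979), and 3 were lower (1.94%). The lower genes were Srsf10 (-0.21 ± 0.06, limma, adjusted p = 0.743), Hnrnpm (-0.18 ± 0.08, adjusted p = 0.958) and Hnrnpa2b1 (-0.16 ± 0.06, adjusted p = 0.950). Hnrnpa2b1 encodes a protein known to carry mRNA into dendrites and into the processes of oligodendrocytes. With all 24 arrays the same differences were -0.10 ± 0.09, -0.07 ± 0.11 and -0.06 ± 0.09 and did not pass. The 4 ZT0 arrays of Srsf10 read 9.60, 9.32, 9.46 and 8.64, those of Hnrnpm 9.06, 8.83, 8.97 and 8.07 and those of Hnrnpa2b1 9.61, 9.43, 9.67 and 8.78. In each of them replicates 1 to 3 lay above the mean of the gene over all arrays, and replicate 4 was its lowest array.

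The remaining contrast set the start of the light (ZT0 and ZT4, early light) against the start of the dark (ZT12 and ZT16, early dark). With all arrays 1 of 27 genes was higher at an unadjusted p under 0.05, against 4.67% of all transcripts, and 0 lower, against 5.52%. At an adjusted p under 0.05 0 of 27 passed, against 0.0342% (8 transcripts). The gene was Hnrnph2, whose protein binds runs of G and which differed by 0.15 ± 0.07 (limma, adjusted p = 0.488). Its arrays read 8.54, 8.13, 8.33 and 8.33 at ZT0 and 8.34, 8.51, 8.16 and 8.41 at ZT4, against 8.33, 8.23, 8.26 and 8.09 at ZT12 and 8.13, 8.14, 8.43 and 7.95 at ZT16. Both sides overlapped over much of their range, and in only 6 of 24 fits that left out 1 array did the p stay under 0.05.

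Without ZT0 replicate 4, 3 genes were higher in the early light (4.85% of all transcripts) and 0 lower (6.25%). They were Hnrnpm (0.25 ± 0.08, limma, adjusted p = 0.274), Srsf5 (0.23 ± 0.09, adjusted p = 0.347) and Hnrnpa2b1 (0.14 ± 0.06, adjusted p = 0.395), and Hnrnph2 no longer passed (0.15 ± 0.07, adjusted p = 0.467). With all arrays the 3 differed by 0.13 ± 0.11, 0.12 ± 0.12 and 0.04 ± 0.09 and did not pass. Srsf9, named by the rule, pointed toward the early dark (-0.15 ± 0.08, and -0.10 ± 0.07 without the array) and passed in neither fit.

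**Figure D4:**
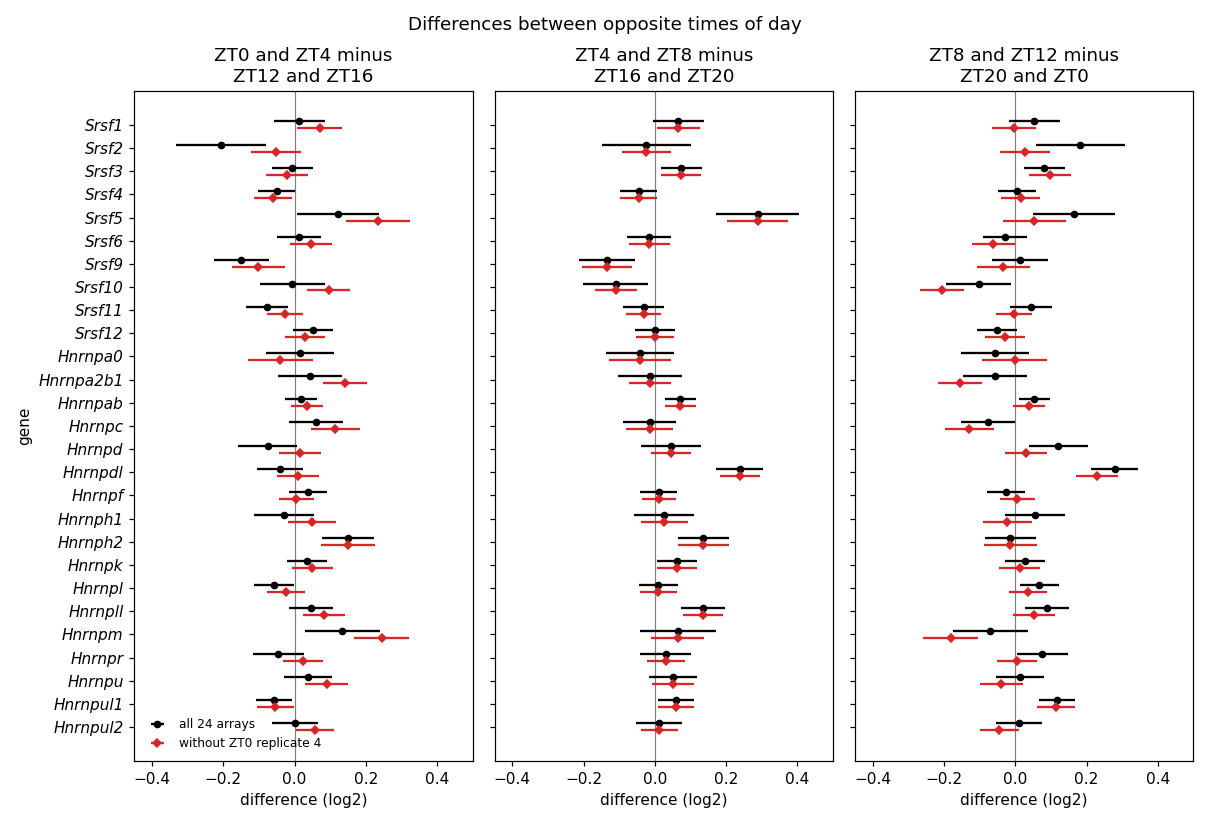
Difference (log2) between opposite times of day for each of the 27 genes. Panels are early light minus early dark, late light minus late dark (ZT4 and ZT8 minus ZT16 and ZT20) and lights off minus lights on. Points are estimates and bars 1 SE, in black with all 24 arrays and in red without ZT0 replicate 4. Hnrnpdl lies at 0.24 and 0.28 in the middle and right panels, and Srsf2, Srsf5 and Hnrnpm move most between black and red.

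Rhythm p-values that follow are unadjusted, from the limma fit over all 24 arrays. Among the SR genes not yet described, Srsf9 had its lowest mean at ZT0 (7.26 ± 0.23, SD, n = 4) and its highest at ZT20 (7.56 ± 0.14), with a rhythm p of 0.134 (n = 24). Srsf3, which encodes the smallest SR protein, ran from 9.06 ± 0.15 at ZT20 to 9.24 ± 0.10 at ZT12, with a p of 0.312. Srsf11 ran from 7.82 ± 0.21 at ZT0 to 7.96 ± 0.05 at ZT16, with a p of 0.411, and without ZT0 replicate 4, its lowest array, its ZT0 mean was 7.92 ± 0.07, its lowest mean 7.88 at ZT4 and its p 0.757. Srsf2 ran from 10.27 ± 0.62 at ZT0 to 10.56 ± 0.15 at ZT12 (fold 1.20, p of 0.182), and without ZT0 replicate 4 its ZT0 mean was 10.58 ± 0.10 and its fold 1.06 (p of 0.646). Srsf6 was among the 3 genes with the largest rhythm p (0.890), and its 6 means lay between 7.73 and 7.80, or up to 7.85 at ZT0 without that array (p of 0.620). Srsf1, Srsf4 and Srsf12 had a p of 0.614, 0.586 and 0.560.

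Among the hnRNP genes, Hnrnpab and Hnrnpd, relatives of Hnrnpdl, had smaller differences. The means of Hnrnpab ran from 8.85 ± 0.09 at ZT20 to 8.93 ± 0.03 at ZT4 (SD, n = 4, rhythm p of 0.223), and its SD over arrays was 0.06. Those of Hnrnpd, the AU-rich binding protein also called AUF, ran from 10.15 ± 0.06 at ZT20 to 10.33 ± 0.11 at ZT12 (p of 0.330), and without ZT0 replicate 4 the highest mean was at ZT0 (10.39 ± 0.14, p of 0.705). All 3 relatives thus had their lowest mean at ZT20 with all arrays, and Hnrnpdl alone had a p under 0.05. Hnrnpul2 had the largest rhythm p with all arrays (0.977, means between 10.10 and 10.13), but without ZT0 replicate 4 its ZT0 mean was 10.23, its p 0.650, and the largest p was that of Hnrnpf (0.972). The means of Hnrnpa0 lay between 5.28 and 5.41 (p of 0.816). For Hnrnpc, Hnrnpf, Hnrnph1, Hnrnpk, Hnrnpl, Hnrnpr and Hnrnpu the rhythm p lay between 0.399 for Hnrnpl and 0.800 for Hnrnph1.

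For 6 genes, further probe sets measured the same gene. The second probe set of Srsf5 followed the first (r = 0.997 over arrays, a likeness and no test, since the probes may overlap). Its late light difference of 0.26 ± 0.11 also passed unadjusted, but its rhythm p of 0.0561 did not. The rhythm call of Srsf5 with all arrays thus rested on the probe set used. For Hnrnph2 the second probe set had an early light difference of 0.06 and did not pass, so the call of Hnrnph2 rested on 1 of its 2 probe sets. Which of the 2 probe sets lies at the start shown above was not analysed for Srsf5 or for Hnrnph2. The 2 may therefore not be equal readings of either gene. The second probe set of Srsf10 had a rhythm p of 0.428 without ZT0 replicate 4 and also read low on that array (-1.37). The probe sets of Srsf3 disagreed on that array, with 0.12 for the one used and 0.33 and -1.12 for the others. Over all arrays the r of these others with the one used was 0.84 and -0.16. The values of Srsf3 given here thus hold for the probe set used. Over the 4 probe sets of Hnrnpf and the 3 of Hnrnpk no rhythm p was under 0.05, and near-identical copies of such genes elsewhere in the genome may share probes.

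Other genes of the pathway were counted in 6 lists, by the unadjusted p of the rhythm fit over all 24 arrays. Of 12 measured hnRNP proteins under older names 1 had a rhythm p under 0.05, Pcbp3 (poly-C binding, p of 0.0450, peak ZT 3.41, fold 1.12), and Ptbp1 (p of 0.0570) and Ptbp3 (p of 0.0709) followed. Of 17 SR-related genes 1 passed, Tra2a (p of 0.0261, peak ZT 21.1, fold 1.23), an activator of exons that also passed without ZT0 replicate 4 (p of 0.00234), followed by Srrm4 (p of 0.0600) and Scaf4 (p of 0.155). Of 11 kinases and import factors 1 passed, Tnpo2 (p of 0.0258, peak ZT 13.6, fold 1.14), a nuclear import receptor, followed by Tnpo1 (p of 0.268) and Tnpo3 (p of 0.302), the importer of SR proteins. Of 23 neural regulators 1 passed, Celf2 (p of 0.0402, peak ZT 12.3, fold 1.13), followed by Rbfox1 (p of 0.0800) and Mbnl3 (p of 0.133). With ZT0 replicate 4 left out, neither Pcbp3 (p of 0.0562) nor Celf2 (p of 0.0882) passed, which left 0 genes in both lists, and Tnpo2 still did (p of 0.0382).

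Of 32 core spliceosome genes 4 passed, Prpf4 (p of 0.0137, peak ZT 14.3), Prpf19 (p of 0.0276, ZT 14.1), Sf3b4 (p of 0.0433, ZT 16.3) and Sf1 (p of 0.0453, ZT 14.1), all with fitted peaks in the dark. The share, 12.5%, stood beside 8.91% of all transcripts, and without ZT0 replicate 4 it was 6.25%, with Prpf4 (p of 0.0125) and Sf3b4 (p of 0.0354). Of 10 exon junction and decay genes 0 passed, with Smg8 (p of 0.0740), Casc3 (p of 0.0922) and Upf1 (p of 0.131) closest. No gene of the 6 lists had an adjusted p under 0.05.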

How the data were processed

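Values were RMA expression on the log2 scale, which the authors deposited for 24 arrays after background correction, quantile normalization and median polish in R 2.13.1 (values 2.27 to 14.1; 0 columns without a sample). Quantile normalization gives all arrays nearly 1 distribution, so changes are relative to the other transcripts. Array precision is limited by the 4 mice per time point. Labels give 4-h intervals and were followed, although the methods of the study give another interval. The study fitted CircWave, which was not at hand.

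Gene names came from the platform annotation, updated through the GRCm38.p6 gene table for 21698 probe sets. Of 23410 probe sets with a gene, 21789 have 1 gene and 1621 several. All were fitted in limma 3.58.1 (R 4.3.3): a moderated F-test of the cosine and sine of a 24-h period, and moderated contrasts in a fit of 6 groups, with Benjamini-Hochberg adjustment over all. No low values were filtered out. Plots were drawn with matplotlib 3.10.9.

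The members, lists, tests and motifs were chosen with earlier results of these data known. Named were the 10 genes with the smallest rhythm p, the 4 smallest per contrast, the 3 largest rhythm p, the largest SD, and the 3 smallest of each other list. Others were picked after their values were seen.

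On simulated data over 23410 transcripts (50 changed per fold), the rhythm fit recovered 72% at a fold of 1.15 and 96% at 1.3 at an unadjusted p under 0.05, and 10% and 72% after adjustment. The late contrast recovered 86% and 100%, and 16% and 88% after adjustment. The simulated noise was independent between genes and arrays, with no shift shared by genes on 1 array such as that of ZT0 replicate 4. These rates may therefore not hold for the SR and hnRNP genes.

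Alternatives were other scalings and fits, all probe sets of a gene, the replicate number as a block, and each array left out.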

Additional observations from a re-analysis of the deposited data

Results flagged for a closer look

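Of 84 groups of 4 arrays (14 genes at 6 times), 6 held a value far from the other 3 by Dixon's test (7.14%), at a nominal rate of about 1 in 20. The 14 genes share arrays and include Srsf2, named for the largest SD. The share over all transcripts was not computed, so the 7.14% cannot be read as more than the nominal rate. Srsf2 read 9.34 on ZT0 replicate 4 (10.47 to 10.66 on the other 3) and 10.34 on ZT12 replicate 4 (10.62 to 10.65). Srsf3 read 9.30 on ZT4 replicate 4 (9.16 to 9.17) and 8.98 on ZT16 replicate 1 (9.21 to 9.24). Srsf6 read 7.93 on ZT20 replicate 3 (7.74 to 7.76). Hnrnpul2 read 9.93 on ZT12 replicate 4 (10.16 to 10.17). On ZT12 replicate 4, 24 of the 27 genes lay below their own mean, with a mean deviation of -0.10. What set these values apart was not tested.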

How the results depend on the processing

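No count at an adjusted p under 0.05 rose above 0 for the rhythm or any contrast in any alternative run. Differences past an unadjusted threshold with all arrays kept their sign in every alternative. Without ZT0 replicate 4, 6 of the 27 differences changed sign in early light, 7 in lights off and 0 in late light, and 0 of these passed an unadjusted threshold with or without it. At an unadjusted p under 0.05, the rhythm count of 2 became 1 with array medians set equal, with the mean of all rows of a gene, with robust and trended eBayes and with 6 time points as groups. The early light count of 1 became 2 after further quantile normalization, 0 with array medians set equal or the mean of all rows, and 4 with array weights. The lights-off count of 2 became 1 after further quantile normalization and 6 with array weights. With 1 array left out, the rhythm count ranged from 1 to 4, early light from 0 to 3, late light from 1 to 4 and lights off from 1 to 5. Without ZT0 replicate 4 the rhythm count was 4, early light 3 and lights off 5. The rhythm count was 1 when any single array of ZT4 replicates 1 to 3, ZT8 replicate 2, ZT12 replicate 2, ZT16 replicate 1 or ZT20 replicates 1, 2 and 4 was left out. Early light was 0 when any single array of ZT4 replicates 1, 2 and 4, ZT8 replicates 1 to 4, ZT12 replicates 2 and 3, ZT16 replicates 2 and 4 or ZT20 replicates 1 and 2 was left out, and 2 without ZT0 replicate 2 or ZT16 replicate 3. Late light was 1 without ZT4 replicate 2, and lights off 1 without ZT8 replicate 2, ZT12 replicate 1 or ZT20 replicate 2. The causes were not tested.

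By the mean correlation, replicate numbers did not pair the arrays over all transcripts, although the 4 arrays lowest in these genes were all replicates 4. Deviations of arrays with the same number correlated with a mean r of 0.03 (60 pairs, -0.30 to 0.58, 14 over 0.1). Those with other numbers had a mean r of -0.01 (180 pairs, -0.50 to 0.33, 39 over 0.1), so the highest single r was between arrays of the same number. With the replicate block the early light count of 1 became 0, and the other counts stayed within 1.5 times.

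Hnrnpdl stayed under an unadjusted 0.05 in 24 of 24 fits without 1 array and in 11 of 11 other rhythm fits (p up to 0.00294), as in both contrasts. Srsf5 did so in 13 of 24 and 4 of 11 rhythm fits, and in 23 of 24 and 6 of 7 late light fits. Hnrnpll did so in 16 of 24 and 7 of 7, Hnrnpul1 in 21 of 24 and 6 of 7, and Hnrnph2 in 6 of 24 and 3 of 7.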
